A study of Mus musculus with 4 samples.

Results

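The 10 tubulin isotype genes Tubb3, Tubb2a, Tubb2b, Tubb4a, Tubb4b, Tubb5, Tubb6, Tuba1a, Tuba1b and Tuba1c were followed in proliferating iMOP cells and in neurons derived from them. They were picked out by symbol, a rule that uses no measured value but was set with earlier results of these data known, and all 10 were among the 49997 gene symbols of the deposited count tables. iMOP cells are an immortalized mouse line of multipotent otic (inner ear) progenitors, and all cultures were wild-type. The 2 proliferating cultures grew in DMEM/F12 with B27 and carbenicillin, with 20 ng/ml of basic FGF. The 2 neuron cultures were kept in Neurobasal with N21 and L-glutamine, with 1 µM of K03861, a CDK2 inhibitor. The labels call the libraries biological replicates 1 and 2, and both replicate 2 libraries also belong to "set 2". Since no separate thawing or passage is described, p-values measure the spread between these cultures only.

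Microtubules are polymers of a dimer of 1 α-tubulin and 1 β-tubulin, each encoded by several isotype genes. The isotypes share a nearly constant core and differ mainly in the acidic C-terminal tail, where motors, microtubule-associated proteins and tail-modifying enzymes act. Tubb3 (class III β-tubulin) is the textbook marker of young neurons, Tubb2a, Tubb2b and Tuba1a are abundant in developing brain, and Tubb5, Tubb4b, Tuba1b and Tuba1c are widely used in dividing cells. Soluble tubulin limits its own supply through decay of tubulin mRNA during translation, which the protein TTC5 starts by reading the first residues of the nascent chain.

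The ends of the coding sequences of 5 β-tubulin genes are shown because the tails they encode set the isotypes apart and because their likeness bears on how reads can be assigned. Each line gives the last 60 coding bases, stop codon included, of the longest protein-coding GENCODE M21 transcript (GRCm38), 5′ to 3′. Capitals mark bases that differ from, or have no counterpart in, the aligned coding sequence of a partner. The partner is Tubb4b for Tubb5, Tubb5 for Tubb4b and Tubb3, and the other gene of the pair for Tubb2a and Tubb2b.
Tubb5: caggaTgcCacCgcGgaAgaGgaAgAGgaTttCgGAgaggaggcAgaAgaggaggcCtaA
Tubb4b: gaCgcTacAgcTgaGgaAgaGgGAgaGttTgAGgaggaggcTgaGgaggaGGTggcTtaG
Tubb3: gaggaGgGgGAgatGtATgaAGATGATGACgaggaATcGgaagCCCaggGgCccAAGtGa
Tubb2a: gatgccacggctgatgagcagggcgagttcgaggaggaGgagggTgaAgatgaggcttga
Tubb2b: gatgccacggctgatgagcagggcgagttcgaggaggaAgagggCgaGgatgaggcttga

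Of these 60 bases, 29 of Tubb3 differ from Tubb5, whereas 3 separate Tubb2a from Tubb2b. Over the whole coding sequence Tubb3 and Tubb5 were 81.4% identical, Tubb2a and Tubb2b 96.5%, and Tuba1a and Tuba1b 98.3%. The coding sequence of Tubb5 opens with atgagggaaatc and that of Tubb2a with atgcgcgagatc, the start read in tubulin autoregulation. In mm10, the build in the submitters' processing notes, Tubb3 lies on chromosome 8 (123411553 to 123422015), Tubb5 on chromosome 17 (35833920 to 35838301), and Tubb2a and Tubb2b side by side on chromosome 13 (34074278 to 34078008 and 34127008 to 34130354). Tuba1b, Tuba1a and Tuba1c lie together on chromosome 15 (98931429 to 98934390, 98949847 to 98953501 and 99029891 to 99038105). The coordinates are those of RefSeq on GRCm38.p6, and each of the longest transcripts has 4 exons.

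How much of each transcript could be assigned to 1 gene differed widely. Every window of 150 bases, the read length, was looked up in the transcripts of other GENCODE genes, pseudogenes included. Genes whose exons overlap those of the isotype on the same strand were left out, which concerns Gm49450 for Tuba1a and Tuba1b. None of the 1719 windows of Tubb3, the 2500 of Tubb5 or those of Tubb4a and Tubb6 occurred elsewhere. The shared part was 16.8% for Tubb4b, 20.1% for Tubb2b, 27.9% for Tubb2a, 37.5% for Tuba1a, 46.7% for Tuba1c and 53.0% for Tuba1b. With windows of 50 bases it was 82.2% for Tuba1b and 0.115% for Tubb5. How the authors treated reads with several matches is not given in the sources used here. The levels of the 3 α-tubulin genes and of Tubb2a, Tubb2b and Tubb4b are therefore uncertain, and the part of shared sequence in any difference below was not tested. Of the well-counted isotypes, Tubb3 and Tubb5 had no shared window of this length.

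**Figure D1:**
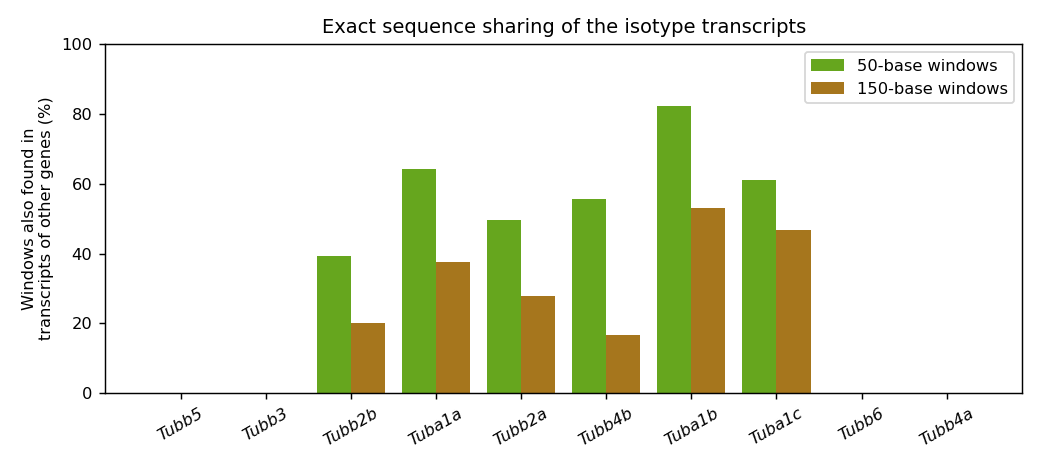
Share of 50-base and 150-base windows (%, bars from 0) of each isotype's longest transcript that occur exactly in a transcript of another gene. Genes overlapping the isotype's exons on the same strand were left out. Tubb3, Tubb5, Tubb4a and Tubb6 are at or near 0, and Tuba1b is highest at 82.2% and 53.0%.

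The libraries held 7446361 to 14484011 counts, of which an 18S ribosomal RNA row took 53.3% to 76.1%, with both set 2 libraries above both set 1 libraries. Between 2595578 and 3850766 counts remained without it. Marker genes ran partly against the labels, most in the library labelled proliferating replicate 2. There, 8 proliferation genes summed to 57.3 CPM (counts scaled to library size), against 303 in the other proliferating library and 391 and 215 in the neuron libraries, so that the highest sum was in neuron replicate 1. The 11 neuron marker genes, Tubb3 not included, summed to 143 and 156 CPM in proliferating replicates 1 and 2 and to 174 and 261 CPM in neuron replicates 1 and 2. Map2 alone gave much of these sums, with 93.9 and 92.3 CPM in the proliferating and 121 and 141 CPM in the neuron libraries. None of the 11 was at 0 in all libraries, but Gap43 was at 0 in both neuron libraries, and Snap25 had 2 and 35 counts there. The 8 otic progenitor markers ran with the labels in sum but not for every gene. They summed to 78.3 and 111 CPM in the proliferating and 70.2 and 32.7 CPM in the neuron libraries. Among them Sox9 had 40.8 and 58.1 against 26.9 and 4.18 CPM, and Sox2 had 29.7 and 48.1 against 33.8 and 22.0 CPM. Eya1 went the other way, with 5.09 and 3.65 against 8.66 and 5.81 CPM, without overlap between the groups. Pax2 and Pax8 were at 0 in all libraries. Oligodendrocyte and Schwann markers (6 genes) summed to 83.2 CPM in proliferating replicate 2 and to 1.43 to 7.07 CPM elsewhere. Astrocyte and radial glia markers (6 genes) summed to 160 and 111 CPM in the proliferating libraries and 68.2 and 17.7 CPM in the neuron libraries. Hair cell markers (5 genes, Pou4f3 and Otof at 0 throughout) summed to 0.0841 to 9.68 CPM and mesenchyme markers (5 genes, Col1a2 and Dcn at 0 throughout) to 7.14 to 17.1 CPM. In such bulk samples, fewer cells of a type and less RNA per cell cannot be told apart. The part of these marker differences in the tubulin values was not tested.

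CPM here uses the TMM-adjusted library size, a scaling by edgeR that assumes most genes are level. Its factors were 1.64 and 0.713 in proliferating replicates 1 and 2 and 1.26 and 0.678 in neuron replicates 1 and 2. On that scale the 10 isotypes together reached 279 and 1092 CPM in proliferating replicates 1 and 2 and 335 and 626 CPM in neuron replicates 1 and 2. The group means were 686 ± 575 CPM for proliferating cells and 480 ± 206 CPM for neurons (SD, n = 2 each), so the groups overlapped. Proliferating replicate 2 was highest and proliferating replicate 1 lowest. With 2 libraries against 2, no exact two-sided permutation p under 0.33 is possible, and none is given for such sums and shares.

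In edgeR's quasi-likelihood test of neurons against proliferating cells, 0 of the 8 isotypes that passed the filter on low counts were called higher and 0 lower at a Benjamini-Hochberg adjusted p under 0.05. The background was the same, with 0% of 12783 genes called in either direction. At an unadjusted p under 0.05 there was 1 isotype, Tubb2a, lower in neurons, against 2.51% of all genes lower, 0.915% higher and 3.43% in either direction. DESeq2 called 0 isotypes, against 0.368% of all genes lower and 0.0939% higher. The log2 fold change was below 0 for 7 of the 8, against 48% of all genes, with a median of -0.78 against 0.024 over all genes. In set 2 the neuron library was lower for 7 of the 8 (46.7% of all genes), and in set 1 for 5 (50% of all genes). Lower in both sets were 4, Tubb2a, Tubb4b, Tuba1a and Tuba1c (25.5% of all genes), and higher in both sets were 0 (28.8% of all genes). For 0 of the 8 did the CPM of the groups lie apart, against 14.5% of all genes with both neuron libraries below and 12.9% above. In CPM, proliferating replicate 2 was the highest library for 7 of the 8. The overlap depended on the scaling. By deposited RPKM, scaled by library totals that include the 18S row, Tubb2a, Tubb4b, Tubb5, Tuba1a and Tuba1c were lower in both neuron libraries than in both proliferating ones. Tubb3, Tubb2b and Tuba1b overlapped. The share of all genes that lay apart by RPKM was not computed. On log2(RPKM + 0.1) the median log2 fold change of all genes was -0.15.

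**Figure D2:**
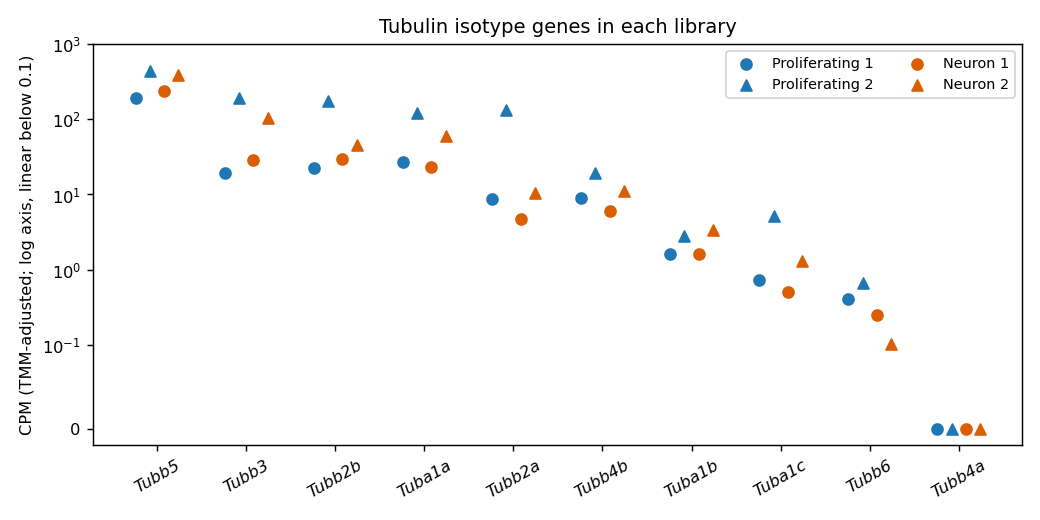
CPM of each isotype gene (log axis, linear below 0.1) in the 2 proliferating (blue) and 2 neuron (orange) libraries; circles are replicate 1 and triangles replicate 2. Proliferating replicate 2 is the highest library for 7 of the 8 tested isotypes, and the groups overlap for each of these.

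By counts and per GENCODE transcript length, Tubb5 was the leading isotype in every library, in both groups. It had 2319 and 3275 counts in proliferating replicates 1 and 2 and 2853 and 3823 in neuron replicates 1 and 2. In CPM these were 191 and 443 against 240 and 390, so that both neuron libraries lay between the proliferating ones. By deposited RPKM they were 39.2 and 39.7 against 37.9 and 33.2, so that both neuron libraries lay below. The means were 317 ± 179 and 315 ± 106 CPM (SD, n = 2 each), with a log2 fold change of -0.0092 (SE 0.53, edgeR adjusted p 0.9998). It was 0.33 in the set 1 pair and -0.19 in the set 2 pair. Without proliferating replicate 2 the log2 fold change was 0.74, and without proliferating replicate 1 it was -0.53.

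Tubb4b, the other broadly used β-tubulin, was far lower, with 108 and 144 counts in the proliferating and 72 and 110 in the neuron libraries, replicate 1 first. The CPM values were 8.87 and 19.5 against 6.06 and 11.2. Its neuron library was the lower one in each set, by 0.54 and 0.79 on the log2 scale. The groups nevertheless overlapped in CPM, and the log2 fold change was -0.71 (SE 0.59, edgeR adjusted p 0.9998). By deposited RPKM they did not overlap, with 9.06 and 8.67 in the proliferating and 4.75 and 4.75 in the neuron libraries. There limma on log2(RPKM + 1) gave -0.78 (adjusted p 0.99997). Leaving out proliferating replicate 2 gave -0.023 and leaving out neuron replicate 1 gave -0.38. Dropping proliferating replicate 1 or neuron replicate 2 gave -1.22 and -1.23.

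Tubb3 separated the sets more than the groups. It had 233 counts in proliferating replicate 1 and 1430 in proliferating replicate 2, and 342 and 1026 in neuron replicates 1 and 2. The CPM values were 19.1 and 194 in proliferating cells and 28.8 and 105 in neurons. The library labelled proliferating replicate 2 thus held the most Tubb3, 10.1 times the level of proliferating replicate 1, while the neuron replicates differed 3.64-fold. The log2 fold change was -0.67 (SE 1.02, edgeR adjusted p 0.9998), 0.58 in the set 1 pair and -0.89 in the set 2 pair. It turned to 1.82 without proliferating replicate 2 (adjusted p 0.59) and was -1.90 without neuron replicate 2. Of the 9 neuron markers tested, 3 were higher in the neuron library of set 1 and 7 in that of set 2. Stmn2, a microtubule-destabilizing protein of growth cones, had 4 and 60 counts in the proliferating and 3 and 35 in the neuron libraries. It was not among the 7, nor was Nefl, with 4 and 20 against 21 and 18 counts. Elavl4, a neuronal RNA-binding protein, had 92 and 90 against 211 and 373 counts and was higher in both neuron libraries. Dcx, a microtubule-associated protein of migrating young neurons, had 22.9 and 15.4 CPM in the proliferating and 22.6 and 39.0 CPM in the neuron libraries.

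Tubb2a had the largest log2 fold change of the 8. It had 106 and 966 counts in proliferating replicates 1 and 2 and 57 and 103 in neuron replicates 1 and 2. In CPM these were 8.71 and 131 against 4.79 and 10.5, so neuron replicate 2 still lay above proliferating replicate 1. By deposited RPKM they were 8.86 and 57.9 against 3.74 and 4.43, without overlap. The log2 fold change was -3.19 (SE 1.14), with an unadjusted p of 0.025 and an edgeR adjusted p of 0.9998. The set 1 pair differed by -0.84 and the set 2 pair by -3.61. Without proliferating replicate 2 the log2 fold change was -0.17, and the size of this TMM-scaled value therefore rested on that library. Tubb2a was called in the edgeR fits without a gene filter (adjusted p 0.00011, 0.472% of all genes called lower and 0.159% higher) and without proliferating replicate 1 (adjusted p 0.0070, 0.628% of all genes called lower). It was not called by DESeq2 (adjusted p 0.056) or with the replicate number as a block (log2 fold change -2.29, adjusted p 0.43).

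Its neighbour Tubb2b had 271 and 1283 counts in the proliferating and 348 and 443 in the neuron libraries, or 22.3 and 174 against 29.3 and 45.2 CPM. On the CPM scale both neuron libraries lay between the proliferating ones. By deposited RPKM, neuron replicate 2 (15.9) lay below proliferating replicate 1 (18.9), and neuron replicate 1 (19.1) lay above it. The log2 fold change of -1.39 (SE 0.86, edgeR adjusted p 0.9998) became 0.76 without proliferating replicate 2 and -2.26 without proliferating replicate 1, where Tubb2b was called (adjusted p 0.044). Tubb2a counts made up 28.1% and 43.0% of the counts of this pair of genes in proliferating replicates 1 and 2 (95% Wilson intervals 23.8% to 32.9% and 40.9% to 45.0%). In neuron replicates 1 and 2 they made up 14.1% (11.0% to 17.8%) and 18.9% (15.8% to 22.4%). This within-pair share did not overlap between the groups, and the intervals cover counting error only. With 2 libraries against 2, such a separation cannot have an exact two-sided permutation p under 0.33. Its means were 35.5% ± 10.5 in proliferating cells and 16.5% ± 3.39 in neurons (SD, n = 2 each). The transcribed pseudogene Tubb2a-ps2, which shares windows with both genes, had 25 and 122 counts in the proliferating and 39 and 43 in the neuron libraries.

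**Figure D3:**
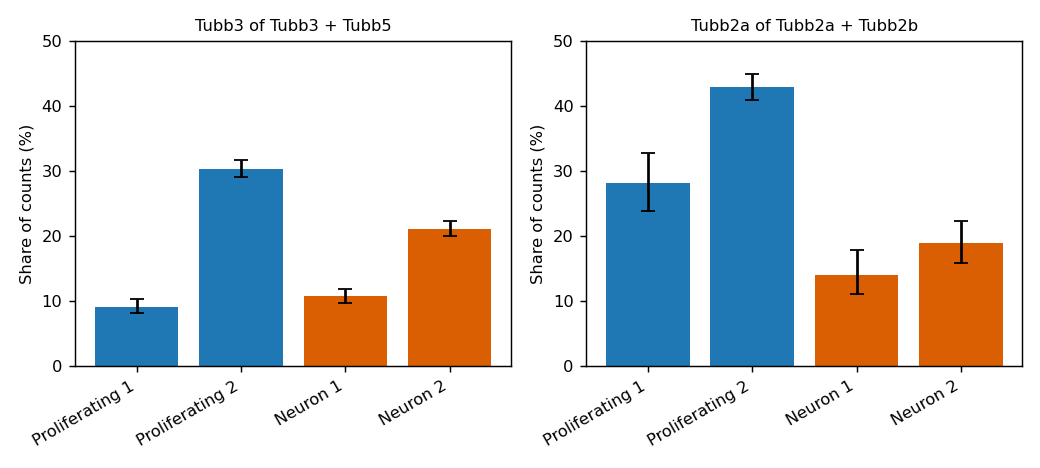
Share of counts (%, bars from 0, error bars 95% Wilson intervals for counting error) of Tubb3 within Tubb3 plus Tubb5 (left) and of Tubb2a within Tubb2a plus Tubb2b (right) in each library, proliferating in blue and neurons in orange. Tubb3 is highest in the replicate 2 libraries of both groups, and the Tubb2a share is 28.1% and 43.0% in proliferating cells against 14.1% and 18.9% in neurons.

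The remaining β-tubulins were at or near the detection limit. Tubb4a, a brain isotype of myelinating glia and mature neurons, had 0 counts in all 4 libraries. That allows it a share of the family of up to 0.0883% in proliferating replicate 1, which had the smallest family total. In proliferating replicate 2, with the largest family total, the limit was 0.0372%. Tubb6, a low-level isotype of many tissues, had 5 and 5 counts in the proliferating and 3 and 1 in the neuron libraries, and neither gene passed the filter.

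Among the α-tubulins, Tuba1a held most counts. It had 327 and 904 counts in proliferating replicates 1 and 2 and 278 and 586 in neuron replicates 1 and 2, or 26.9 and 122 against 23.4 and 59.7 CPM. Its neuron library was the lower one in each set, by 0.20 and 1.03 on the log2 scale, but the groups overlapped in CPM. By deposited RPKM they did not, with 27.6 and 54.8 in the proliferating and 18.4 and 25.4 in the neuron libraries. The log2 fold change was -0.84 (SE 0.78, edgeR adjusted p 0.9998) and 0.65 without proliferating replicate 2. Tuba1b, the major α-tubulin of dividing cells, had only 20 and 21 counts in the proliferating and 19 and 33 in the neuron libraries (log2 fold change 0.15, SE 0.68). Tuba1b is the gene with the largest shared part of sequence, and the gene Gm41396, which overlaps its exons on the opposite strand, had 69 and 21 against 28 and 14 counts. GENCODE also places Gm49450 over exons of Tuba1a and Tuba1b on the same strand, and its counts are not analysed here. Tuba1c, with 9 and 38 against 6 and 13 counts, had a log2 fold change of -1.66 (SE 1.03, edgeR adjusted p 0.9998) that became 0.31 without proliferating replicate 2.

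**Figure D4:**
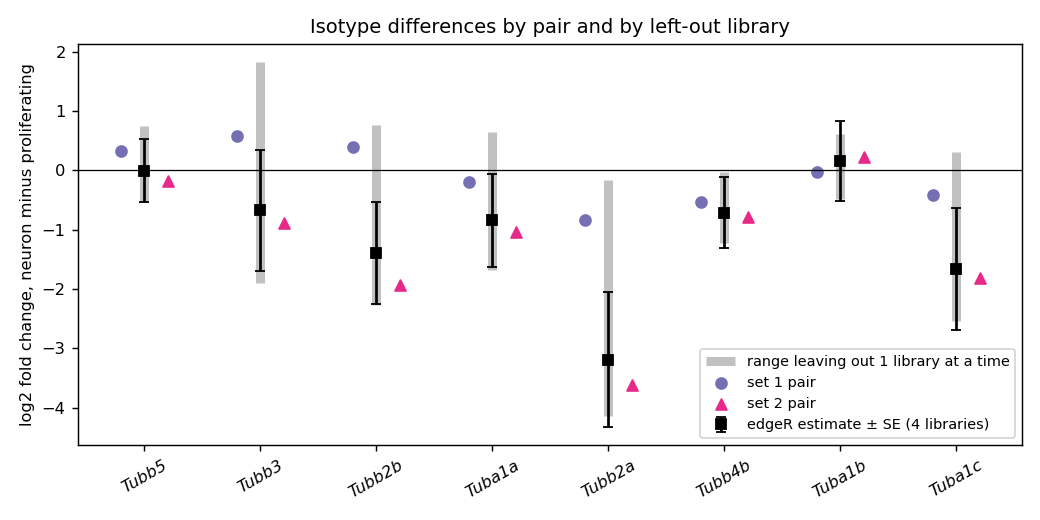
log2 fold change (neuron minus proliferating) of the 8 tested isotypes: edgeR estimate ± SE (squares), the set 1 and set 2 pairs (circles and triangles, log2 CPM) and the range when 1 library is left out (grey bars). The range crosses 0 for each isotype but Tubb2a and Tubb4b, whose values stay between -4.14 and -0.17 and between -1.23 and -0.023.

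Composition was examined as each isotype's share of the 10-gene total, which was 3398 and 8066 counts in proliferating replicates 1 and 2 and 3978 and 6138 in neuron replicates 1 and 2. Shares do not depend on the scaling between libraries. Tubb5 made up 68.2% of proliferating replicate 1 (95% Wilson interval 66.7% to 69.8%) but 40.6% of proliferating replicate 2 (39.5% to 41.7%). It made up 71.7% and 62.3% of neuron replicates 1 and 2 (70.3% to 73.1% and 61.1% to 63.5%). The means, 54.4% ± 19.5 and 67.0% ± 6.67 (SD, n = 2 each), differed by 12.6 percentage points, less than the spread between the proliferating replicates. Without proliferating replicate 2 the difference was -1.24 points, without neuron replicate 1 it was 7.86, and without proliferating replicate 1 it was 26.4.

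The share of Tubb3 was 6.86% and 17.7% in the proliferating and 8.60% and 16.7% in the neuron libraries, replicate 1 first. Its means were 12.3% ± 7.69 and 12.7% ± 5.74 (SD, n = 2 each), a difference of 0.36 points. That difference turned on single libraries. It came to 5.80 points when proliferating replicate 2 was left out and to -5.07 points when proliferating replicate 1 was. Leaving out neuron replicate 1 or 2 gave 4.42 and -3.70 points, and the deposited RPKM gave 5.76 points. Tubb2a took 3.12% and 12% of the family in proliferating cells and 1.43% and 1.68% in neurons, with means of 7.55% ± 6.26 and 1.56% ± 0.173. These ranges did not overlap, and without proliferating replicate 2 the difference shrank from -5.99 to -1.56 points. Tuba1a took 9.62% and 11.2% in proliferating cells and 6.99% and 9.55% in neurons, a difference of -2.15 points, with the neuron share of 9.55% just under the proliferating share of 9.62%. Leaving out neuron replicate 1 or 2 gave -0.87 and -3.43 points, and leaving out proliferating replicate 2 gave -1.36 points. By deposited RPKM the Tuba1a shares overlapped, at 22.2% and 17.8% in the proliferating and 17.3% and 20.1% in the neuron libraries. The share of Tuba1c, 0.368% ± 0.146 and 0.181% ± 0.0431, did not overlap either. Its difference of -0.187 points shrank to -0.0835 when proliferating replicate 2 was left out and was -0.290 when the other proliferating library was. With 2 libraries against 2, no such separation of shares can have an exact two-sided permutation p under 0.33. Tubb2b averaged 11.9% ± 5.61 in proliferating cells and 7.98% ± 1.08 in neurons, and overlapped. The difference of -3.96 points became 0.0074 without proliferating replicate 2 and -7.92 without proliferating replicate 1.

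**Figure D5:**
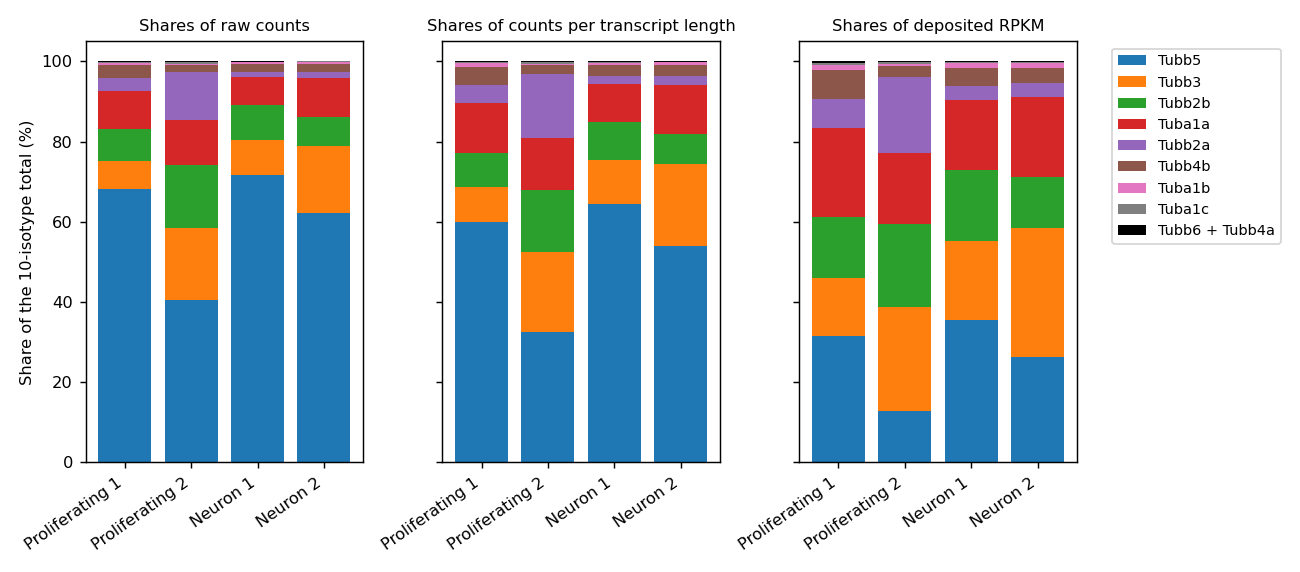
Stacked shares (%) of the 10-isotype total in each library, from raw counts (left), counts per GENCODE transcript length (middle) and the deposited RPKM (right). Tubb5 is the largest part in each library by counts and by transcript length; proliferating replicate 2 has the smallest Tubb5 part on every scale.

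As a single measure of composition, the distance between 2 libraries was taken as the percentage points of the family total that would have to move between isotypes to turn one into the other. Proliferating replicate 1 was 5.99 points from neuron replicate 1 and 9.86 points from neuron replicate 2. The neuron replicates were 11.0 points apart. Proliferating replicate 2 was 29.4 points from the other proliferating library, 31.4 from neuron replicate 1 and 22.0 from neuron replicate 2. The distance between the group means, 13.0 points, was thus smaller than that between the proliferating replicates.

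β-Tubulin genes held 89.5% and 88.1% of the family counts in proliferating replicates 1 and 2 and 92.4% and 89.7% in neuron replicates 1 and 2. The means were 88.8% ± 1.03 and 91.0% ± 1.89 (SD, n = 2 each). Neuron replicate 2 and proliferating replicate 1 lay side by side, with overlapping 95% Wilson intervals (88.9% to 90.4% and 88.4% to 90.5%). Per transcript length, β-tubulin held 86.3% ± 0.298 and 88.4% ± 2.13. The α-tubulin genes, with the smaller part of the counts, are also the ones with much shared sequence, whose part in this split was not tested.

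Between genes, levels were compared per length, as CPM per kilobase of the GENCODE transcript. Tubb5 led in each library, with 71.9 and 167 in proliferating replicates 1 and 2 and 90.6 and 147 in neuron replicates 1 and 2. Tubb3 followed with 10.2 and 104 against 15.4 and 56.0, ranking below Tuba1a (14.9) in proliferating replicate 1 and next to Tubb5 in the other libraries. Tubb2b (10.2 and 79.6 against 13.4 and 20.7) and Tuba1a (14.9 and 67.9 against 13.0 and 33.1) stood close to Tubb3 in set 1, and Tubb2a reached 81.2 in proliferating replicate 2 alone. Tubb4b lay between 3.79 and 12.2, Tuba1b between 0.917 and 1.93, Tuba1c between 0.255 and 2.60, and Tubb6 between 0.0580 and 0.385.

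The deposited RPKM values gave another order because of the length they contain. The length implied by count and RPKM was 7941 bases for Tubb5, 3.0 times the 2649 bases of its longest transcript, whereas for the other 8 isotypes with counts it was 0.881 to 1.00 times. By RPKM, Tubb5 was 39.2 and 39.7 in proliferating replicates 1 and 2, and Tubb3 was 18 and 79.2. In proliferating replicate 2, Tubb2b (64.3), Tubb2a (57.9) and Tuba1a (54.8) also lay above Tubb5. The level of Tubb3 as a percentage of that of Tubb5 was thus 199% by RPKM in proliferating replicate 2, but 61.9% per transcript length. In the other libraries it was 14.2%, 17% and 38.1% per transcript length (proliferating replicate 1, neuron replicates 1 and 2), against 45.9%, 54.7% and 123% by RPKM. Ratios of 1 gene between libraries are not affected by its length, but they do depend on the scaling between libraries.

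By a fixed rule, the 5 genes closest to Tubb3 in centred log2 CPM over the 4 libraries were named, among the 7294 genes whose mean count reached 50. They were Lzts1, Lss, Erdr1, Trp53inp2 and Asic1, at root-mean-square distances of 0.27, 0.29, 0.30, 0.31 and 0.35 on the log2 scale. Lss is an enzyme of cholesterol synthesis and Asic1 a proton-gated channel of neurons. Lzts1 had 20 and 183 counts in the proliferating and 25 and 119 in the neuron libraries. Of the isotypes, Tuba1a (distance 0.50) was the 14th closest and Tubb2b (0.55) the 24th. This likeness is a description over 4 libraries, without a test.

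Genes that fold, modify and regulate tubulin were examined in 5 lists, chosen with earlier results of these data known. In each list 0 genes were called higher and 0 lower by edgeR (adjusted p 0.9998 for each gene named here), and 0 had an unadjusted p under 0.05. Over all 12783 genes these shares were 0% and 3.43%. The folding and assembly cofactors (21 of 21 tested: prefoldin, the CCT chaperonin and the TBC cofactors that build the dimer) had a median log2 fold change of 0.023, with 11 above and 10 below 0. Tbce, which acts on α-tubulin, had the largest value, -0.76 (SE 0.52), with 66 and 34 counts in the proliferating and 41 and 24 in the neuron libraries, and Tbcc had -0.67 (SE 0.58).

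The tail-modifying enzymes (15 of 27 tested) had a median of 0.052, with 8 above and 7 below 0. The largest values were those of the detyrosination enzyme Vash1 and its partner Svbp, which cut the last tyrosine from α-tubulin. Vash1 had 223 and 483 counts in the proliferating and 212 and 213 in the neuron libraries, or 18.3 and 65.4 against 17.8 and 21.7 CPM (log2 fold change -1.08, SE 0.64). Svbp had 17 and 21 against 8 and 7 counts and was lower in both neuron libraries than in both proliferating ones (-1.58, SE 0.79, unadjusted p 0.084). Ttl, the ligase that restores the tyrosine, had 61 and 58 against 45 and 70 counts (-0.23, SE 0.55).

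The autoregulation list (12 of 12 tested: Ttc5, Scaper and subunits of the CCR4-NOT deadenylase) had a median of 0.25, with 8 above and 4 below 0. Ttc5 itself had 51 and 71 counts in the proliferating and 56 and 87 in the neuron libraries (log2 fold change -0.015, SE 0.60). Cnot6, a deadenylase subunit, had 0.82 (SE 0.54) and Cnot11 -0.75 (SE 0.51). The γ-tubulin ring complex genes (9 of 9 tested), which nucleate microtubules, had a median of 0.18 that was -0.24 in the set 1 pair and 0.76 in the set 2 pair. Tubgcp3 had -0.55 (SE 0.48) and Tubgcp5 0.53 (SE 0.50).

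Of the 10 other tubulin genes, 4 were tested, all with a log2 fold change above 0 and a median of 0.31. The γ-tubulin Tubg1 had 102 and 95 counts in the proliferating and 152 and 158 in the neuron libraries (0.45, SE 0.49), and Tubd1 had 16 and 20 against 36 and 19 (0.33, SE 0.67). The α-tubulin Tuba4a had 27 and 7 against 12 and 29 counts. It went opposite ways in the sets, by -1.0 and 1.46 on the log2 scale.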

How the data were processed

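Total RNA of 4 iMOP cultures, 2 per group, was depleted of ribosomal RNA from 500 ng and sequenced as stranded libraries with paired 150-base reads, per the labels' protocols. The authors deposited raw counts per gene symbol and RPKM values for each library. The submitters' processing notes name HISAT2, SAMtools, featureCounts, DESeq2, deepTools 3.4.3 and mm10. The use of strand in counting, the annotation and the treatment of reads with several matches are not given in the sources used here. The deposited RPKM equals the count divided by the library total, 18S row included, and by 1 length per gene.

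Counts were tested with edgeR 4.0.16 in R 4.3.3 (TMM, filterByExpr with a minimum count of 10 and a minimum total of 15, glmQLFit and glmQLFTest, group as the single term, all 4 libraries), with Benjamini-Hochberg adjustment over 12783 genes, two-sided. SE is the log2 fold change divided by the root of the F statistic. Pair differences use log2 CPM with a prior count of 2. Alternatives were RLE factors, library size alone, the 18S row left out, DESeq2 1.42.0, other filters, limma 3.58.1 on log2 RPKM with a pseudocount of 1 or 0.1, a term for the replicate number, and fits that each lacked 1 library. Same-numbered libraries deviated together (r = 0.33 across genes), and the set 2 titles mark a shared set. The edgeR script was tested on simulated data. Isotypes, gene lists and markers were chosen with earlier results of these data known. Named were the isotypes, marker genes, the 5 genes nearest to Tubb3 and, per list, genes with an unadjusted p under 0.05 or else the 2 largest changes; Tuba4a, Ttl and Ttc5 were chosen after their values were seen. Sequences are from GENCODE M21 (141767 transcripts, of which 13607 are from pseudogenes), with Biopython 1.88, scipy 1.17.1, pandas 2.3.3 and Python 3.11.15. Wilson intervals (95%) and the limit of 3 counts for a count of 0 cover counting error only, as reads lacked molecular identifiers and may repeat 1 molecule.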

Additional observations from a re-analysis of the deposited data

How the results depend on the processing

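The isotype calls, 0 higher and 0 lower, stayed at 0 in every setting but the fit without a gene filter, with 1 lower (Tubb2a), and the fits that left out a library, with 0 to 2 lower and 0 higher. The 2 were Tubb2a and Tubb2b without proliferating replicate 1. In those fits the remaining library of a group is assumed to vary like the other group. All genes called higher were 41 without a filter and 12 with DESeq2, and 3 to 29 when a library was left out. Those called lower were 122 without a filter, 47 with DESeq2 (248 adjusted p-values not given), 3 with the replicate block, 3 with the block and the 18S row left out, 2 with library size alone, 1 on log2(RPKM + 1) and 2 on log2(RPKM + 0.1), and 11 to 84 when a library was left out. The replicate block changed no isotype call. The filter on CPM kept the same number of genes as the main filter. Library size alone moved the median log2 fold change of all genes from 0.024 to -0.27, and log2(RPKM + 0.1) moved it to -0.15.

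Signs turned as follows, and the cause was not tested. Tubb5 was 0.0016 with the 18S row left out, 0.046 without a filter, 0.073 with the replicate block and 0.083 with both the block and the 18S row left out. Tuba1b was -0.13 with library size alone, -0.076 on log2(RPKM + 1) and -0.12 on log2(RPKM + 0.1). When a library was left out, log2 fold changes ranged from -1.90 to 1.82 for Tubb3, -2.26 to 0.76 for Tubb2b, -0.53 to 0.74 for Tubb5, -1.68 to 0.65 for Tuba1a, -0.48 to 0.60 for Tuba1b and -2.53 to 0.31 for Tuba1c. When a library was left out, the share differences ranged from -5.07 to 5.80 points for Tubb3, -1.24 to 26.4 for Tubb5, -7.92 to 0.0074 for Tubb2b and 0.91 to 3.59 for β-tubulin. The Tuba1b share differed by 0.28 points by deposited RPKM, against 0.083 from counts. The composition distance was 5.81 to 26.7 points and the log2 difference of the family total -1.25 to 0.71 when a library was left out. The family total's alternatives and the fit with block and without the 18S row were chosen after seeing the data. Depth limits Tubb6, Tuba1b and Tuba1c, with 1 to 38 counts per library.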
